A study of Mus musculus with 8 samples.

Results

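The genes described here are 32 genes of cholesterol and fatty acid synthesis, chosen by their known place in these pathways. They comprise 17 enzymes of sterol synthesis, 5 genes of the SREBP system that regulates both pathways, and 10 enzymes of fatty acid synthesis. Rows for 31 of them stood among the 33435 named genes of the count table, and all 31 were abundant enough to be among the 11040 genes tested. The level of Hmgcs1 was not analysed here. RNA was sequenced from myeloid progenitors, the cells that give rise to granulocytes, monocytes and related blood cells. They were sorted from C57BL/6J fetal liver stem and progenitor cells of age E14.5 that had been infected either with a Trim27 virus (4 libraries) or with a GFP control virus (4 libraries), which the series' design text calls an empty vector. Trim27 is a ubiquitin ligase of the tripartite motif family. The promoter of the virus and the time between infection and sorting are not stated. Nothing in the labels shows that replicate libraries derive from different cultures or animals, so p-values capture library-to-library spread, possibly technical only. In bulk RNA, fewer cells of a type and less RNA per cell cannot be told apart.

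Cholesterol is built from acetyl-CoA through mevalonate, the isoprenoid farnesyl diphosphate, squalene and lanosterol. SREBP proteins, which the genes Srebf1 and Srebf2 encode, are made as membrane precursors held in the endoplasmic reticulum by Insig proteins through the escort protein Scap. When sterols are scarce, Scap carries the precursors to the Golgi for cleavage, and the released fragments enter the nucleus and activate genes of sterol and fatty acid synthesis. Dividing blood progenitors use these lipids for new membranes, and isoprenoids are also attached to small GTPases.

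Total counts were 10551137 to 16366571 in the Trim27 libraries and 9257889 to 10747794 in the GFP libraries. Genes with any count numbered 12962 to 13283 in the Trim27 libraries and 11131 to 11850 in the GFP libraries. The authors deposited raw read counts, and levels are given here as CPM, counts scaled to a common library size after TMM scaling, which assumes that most genes do not differ. Trim27 itself, whose counts cannot separate viral from endogenous transcripts, was at 268, 311, 292 and 301 CPM in Trim27 libraries 1 to 4, against 191, 184, 177 and 171 CPM in GFP libraries 1 to 4. Its log2 fold change was 0.70 (SE 0.05) and lay between 0.14 and 1.0 over 6 scalings. Across the 12 pairs of libraries within a group, the correlation of log2 CPM over genes was 0.985 to 0.993, and over the 16 pairs between groups it was 0.734 to 0.755. All 7 markers of myeloid progenitors were detected (Mpo, Prtn3, Kit and Cd34 among them), with a summed level of 1036 to 1183 CPM in the Trim27 libraries and 1531 to 1636 CPM in the GFP libraries. Summed erythroid markers, 6 of which were in the table, were at 1242 to 1411 CPM in Trim27 and 1742 to 1784 CPM in GFP libraries. They did not move together: 4 were lower in the Trim27 group, Klf1 (502 against 911 CPM) among them. The other 2 were higher there, Gata1 (314 against 167 CPM) and Tfrc (155 against 111 CPM). Of 9 markers of hepatocytes, a cell type of the fetal liver that makes sterols and fatty acids, 6 had no count in any library, among them Alb, Ttr, Apob and Hnf4a. The summed level of the 9, which came from Afp, Apoa1 and a few counts of Apoa2, was 14.9 to 16.4 CPM in the Trim27 libraries and 1.2 to 1.7 CPM in the GFP libraries. Macrophage markers summed to 9.69 to 11.9 CPM in Trim27 and 0 to 0.957 CPM in GFP libraries, with 5 of 7 at 0 throughout. The Trim27 level came from Emr1 alone (678 counts, against 0 in the GFP libraries), and the GFP level from 8 counts of C1qb in GFP library 3. The 8 B cell markers summed to 39.4 to 53.8 CPM in Trim27 and 64.8 to 154 CPM in GFP libraries. Their part in the results below was not tested.

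Start-site windows from RefSeq (GRCm38.p6, 250 bases before to 50 bases after the start) could be matched to 26 of the 32 genes, with 35 windows in all. Both strands were searched for TCACNCCA, a form of the sterol regulatory element that SREBP binds, for CCAAT, the box bound by the SREBP partner NF-Y, and for the E-box CACGTG. TCACNCCA was found in 2 of 35 windows (5.71%), against 4.36% of all 32851 windows. The 2 were those of Srebf2 and of Hmgcs1, whose level was not analysed. CCAAT was found in 22 of 35 windows (62.9%), against 37.4% of all windows, and CACGTG in 7 (20%), against 7.15%. A CCAAT box was found in 6 of the 7 genes with a window that rose and in 12 of the 15 that fell. Matches of TCACNCCA and CCAAT overlapped in 0 windows of these genes. A match is a description of these letters and not a shown binding site. The windows of Srebf2, which held TCACNCCA, of Lss, the sterol enzyme gene with the largest rise, and of Mvd, one of the mevalonate genes that fell together, are printed 5′ to 3′ with both motifs in capitals (CCAAT on the other strand reads ATTGG). They lie at chr15:82147019-82147318 (plus strand), chr10:76531355-76531654 (plus strand) and chr8:122443373-122443672 (minus strand).
Srebf2: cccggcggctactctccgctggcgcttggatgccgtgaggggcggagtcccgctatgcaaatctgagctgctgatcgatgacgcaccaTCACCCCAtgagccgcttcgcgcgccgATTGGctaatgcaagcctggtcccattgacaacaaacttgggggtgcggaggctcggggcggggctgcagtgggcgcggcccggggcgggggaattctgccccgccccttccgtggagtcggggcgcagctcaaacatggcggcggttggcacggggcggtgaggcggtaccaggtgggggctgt
Lss: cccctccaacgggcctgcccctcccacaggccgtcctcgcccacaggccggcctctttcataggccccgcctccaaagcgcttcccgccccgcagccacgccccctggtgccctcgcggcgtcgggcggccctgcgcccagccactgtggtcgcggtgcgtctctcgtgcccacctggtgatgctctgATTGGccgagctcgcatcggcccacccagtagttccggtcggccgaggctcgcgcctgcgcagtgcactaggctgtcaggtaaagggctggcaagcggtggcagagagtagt
Mvd: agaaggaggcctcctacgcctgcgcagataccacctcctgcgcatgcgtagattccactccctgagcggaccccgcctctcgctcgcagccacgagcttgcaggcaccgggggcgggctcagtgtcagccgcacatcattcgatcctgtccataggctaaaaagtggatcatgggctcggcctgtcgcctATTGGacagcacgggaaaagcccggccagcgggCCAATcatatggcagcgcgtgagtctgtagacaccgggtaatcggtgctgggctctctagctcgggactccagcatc

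The genes of these pathways did not move in one direction, and under TMM scaling their shares of rises and falls were close to those of abundant genes in general. Of the 31 genes tested, 9 rose in the Trim27 group, 18 fell and 4 missed an adjusted p of 0.05 in edgeR's quasi-likelihood test, so that 87.1% passed in either direction, against 85.5% of all tested genes. By direction, 47.5% of all tested genes rose and 38.0% fell. Among all genes averaging 6 log2 CPM or more, called abundant here, where 22 of the 31 lay, 30.7% rose and 56.3% fell. The shares over all 31 genes, 29.0% and 58.1%, were close to these, although not all 31 were abundant. Of the 22 abundant ones, 6 rose, 13 fell and 3 did not pass. No overlap between the groups' libraries was seen for 26 of the 31 genes, with Trim27 above in 9 (45.3% of all tested genes) and below in 17 (35.4%). The median log2 fold change was -0.26 over the 31 genes, -0.23 over all abundant genes and 0.14 over all tested genes. In counts, the 31 genes took nearly the same share of each library, 0.539% to 0.545% in Trim27 and 0.545% to 0.546% in GFP libraries. After TMM scaling, their summed level was 4886 ± 76.7 CPM in the Trim27 group and 6063 ± 49.9 CPM in the GFP group (SD, n = 4 each). TMM factors were 1.094 to 1.126 in the Trim27 libraries and 0.891 to 0.905 in the GFP libraries. Since the shares in counts were nearly equal, the difference in summed level follows from these factors. The scaling assumes that most genes do not differ, while 85.5% of tested genes passed here.

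Of the 16 sterol enzymes, 4 rose and 10 fell, against 6 and 6 when library size was the only scaling. After a correction that takes out each library's trend on exon length over all tested genes, 2 rose and 12 fell. Below, length correction means this one unless stated otherwise. Fitting the trend on abundant genes alone gave 6 rises and 9 falls. All 6 measured genes of the steps to farnesyl diphosphate fell, with a median log2 fold change of -0.64. None of the 6 turned to a called rise under the other scalings (4 fell with library size alone, all 6 after either length correction). In the squalene and lanosterol steps, Fdft1 and Lss rose under all of these scalings, while Sqle missed the threshold, rose with library size alone and fell after length correction. From lanosterol to cholesterol, 2 of 7 genes rose and 4 fell, against 3 and 2 with library size alone. After length correction these counts were 0 and 5, and with the trend of abundant genes 3 and 3. This division of the pathway was drawn with the values in view and is a description.

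**Figure D1:**
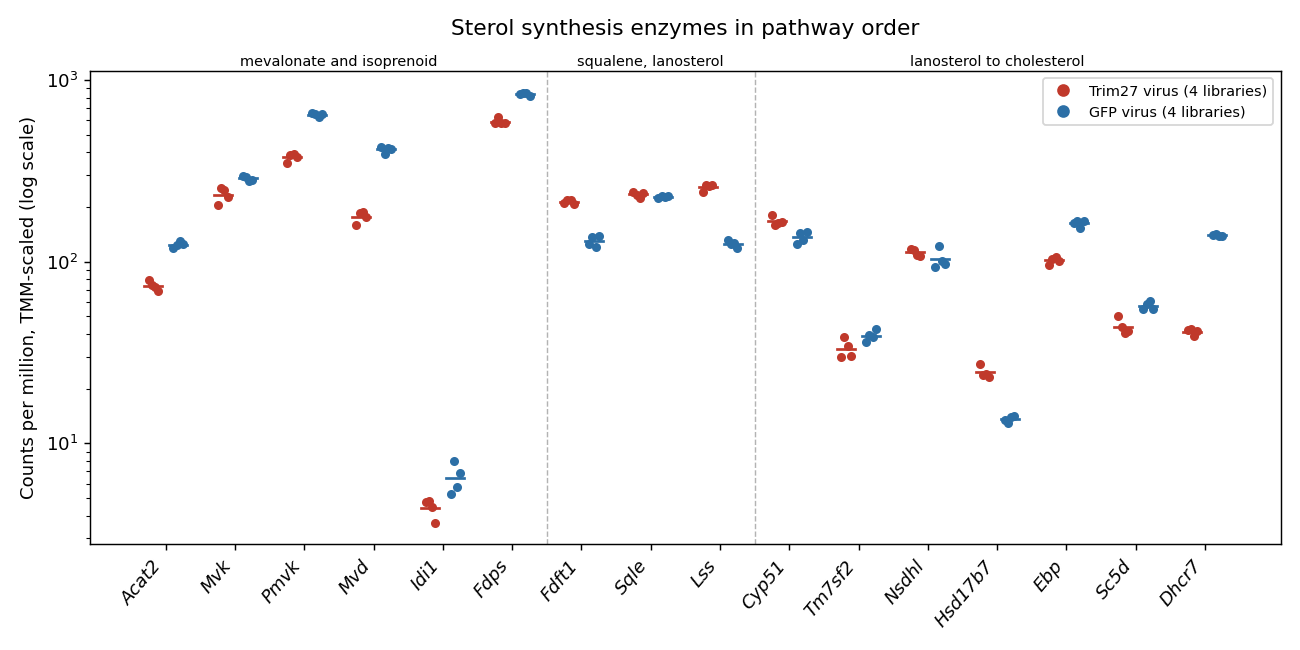
Level of each of 16 sterol synthesis genes in every library, in CPM on a log axis, with genes in pathway order, Trim27 libraries in red left of GFP libraries in blue, and bars at the group means. Dhcr7 sits at 39.0 to 42.4 CPM in the Trim27 libraries, all below 138 to 142 CPM in the GFP libraries, and Lss at 241 to 265 CPM in the Trim27 libraries, all above 119 to 132 CPM in the GFP libraries.

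Mvd, mevalonate diphosphate decarboxylase, showed the largest fall of the mevalonate genes. It was at 160, 184, 188 and 176 CPM in Trim27 libraries 1 to 4, against 430, 393, 425 and 419 CPM in GFP libraries 1 to 4. The groups did not overlap, as was so for 80.7% of all tested genes, and the log2 fold change was -1.23 (SE 0.05, adjusted p = 1.37e-18). Pmvk, the phosphomevalonate kinase of the preceding step, was at 348, 387, 390 and 376 CPM in Trim27 libraries 1 to 4 and at 658, 651, 626 and 651 CPM in GFP libraries 1 to 4. Every Trim27 value lay below every GFP value (-0.79, SE 0.05). Acat2, the cytosolic thiolase that joins acetyl-CoA units, was at 79.5, 74.7, 72.5 and 69.0 CPM in Trim27 libraries 1 to 4 and at 119, 123, 129 and 125 CPM in GFP libraries 1 to 4 (-0.75, SE 0.06). Again the groups did not overlap. Its transcript shares 1477 aligned bases at 97.7% identity with Acat3, which had 43 counts over all libraries against 9186 for Acat2, so reads could be split between this pair to a small extent.

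The other mevalonate genes fell by less. Fdps, farnesyl diphosphate synthase and the most abundant of the 31 genes per length, averaged 591 ± 21.2 CPM in the Trim27 group and 838 ± 13.4 CPM in the GFP group (SD, n = 4 each, log2 fold change -0.50, SE 0.04). Exons of Gm43738, annotated as protein coding on the same strand, overlap 77.4% of the Fdps exon bases. Other genes share stretches with it, among them Gm3571 (143 bases at 100% identity, 7615 counts against 67673 for Fdps), so its level is uncertain. Mvk, mevalonate kinase, averaged 234 ± 22.1 CPM in the Trim27 group and 288 ± 9.36 CPM in the GFP group (-0.30, adjusted p = 2.19e-05), but was at 0.01 (adjusted p = 0.928) with library size alone. Idi1, the isomerase of isopentenyl diphosphate, was scarce, at 4.42 ± 0.537 CPM in the Trim27 group and 6.47 ± 1.22 CPM in the GFP group (-0.54, SE 0.20, adjusted p = 0.0139). The Idi1 call was lost without GFP replicate 2 (-0.43, adjusted p = 0.067) and with library size alone (-0.24, adjusted p = 0.263), and 684 bases of Idi1 are identical in Gm13502, which had 113 counts against 519.

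Fdft1, squalene synthase and the enzyme that commits farnesyl diphosphate to sterols, averaged 214 ± 5.55 CPM in the Trim27 group and 130 ± 8.98 CPM in the GFP group (SD, n = 4 each). It rose by 0.71 on the log2 scale (SE 0.05, adjusted p = 5.63e-13), by 0.21 after length correction and by 1.02 with library size alone. Exons of Ctsb on the opposite strand overlap 20.9% of its exon bases, and the strand setting of the counting is not given. Sqle, squalene epoxidase, did not pass the test, with 235 ± 8.04 CPM in the Trim27 group and 228 ± 2.79 CPM in the GFP group (0.04, SE 0.05, adjusted p = 0.422). Lss, lanosterol synthase, was at 241, 265, 263 and 265 CPM in Trim27 libraries 1 to 4, against 132, 126, 126 and 119 CPM in GFP libraries 1 to 4. All Trim27 libraries lay above all GFP libraries, and Lss was 2.05-fold higher in the Trim27 group (log2 fold change 1.04, SE 0.05, adjusted p = 5.71e-17). After length correction the Lss value was 0.45 (adjusted p = 9.77e-09), below 2-fold. It was 1.06 (adjusted p = 5.67e-16) with the length trend of abundant genes taken out.

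Of the genes that turn lanosterol into cholesterol, Hsd17b7 and Cyp51 rose. Hsd17b7, a sterol 3-keto reductase, was at 27.4, 23.7, 24.2 and 23.1 CPM in Trim27 libraries 1 to 4 and at 13.4, 12.9, 14.0 and 14.2 CPM in GFP libraries 1 to 4. The groups did not overlap (0.86, SE 0.11), but after length correction the call was lost (0.22, adjusted p = 0.0641). Hsd17b7 still rose with the length trend of abundant genes taken out (0.87, adjusted p = 1.08e-07). Cyp51, lanosterol demethylase, averaged 167 ± 9.97 CPM in the Trim27 group and 137 ± 9.62 CPM in the GFP group (0.29, adjusted p = 4.31e-05). Its direction turned after length correction (-0.24, adjusted p = 0.000534), but not with the length trend of abundant genes (0.33, adjusted p = 2.18e-05). Nsdhl, a sterol dehydrogenase, did not pass (0.13, adjusted p = 0.0815), at 113 ± 5.07 CPM in the Trim27 group and 103 ± 12.5 CPM in the GFP group. Its call depended on the setting: it passed upwards with DESeq2 size factors (0.15, adjusted p = 0.0372), upper-quartile factors (0.18, adjusted p = 0.0197) and library size alone (0.43, adjusted p = 2.44e-06), and without GFP replicate 2 (0.21, adjusted p = 0.00319). It also passed with no filter (0.16, adjusted p = 0.018) and with the length trend of abundant genes taken out (0.25, adjusted p = 0.00178), and lay at -0.12 (adjusted p = 0.13) after the correction on all genes.

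Of the other enzymes between lanosterol and cholesterol, Dhcr7 and Ebp fell under all 6 scalings, while Sc5d and Tm7sf2 did not. Dhcr7, the 7-dehydrocholesterol reductase that catalyses a final step of cholesterol synthesis, had the largest fall of all 31 genes. It was at 42.1, 42.4, 39.0 and 41.5 CPM in Trim27 libraries 1 to 4, against 140, 142, 139 and 138 CPM in GFP libraries 1 to 4. Within each group the libraries differed by little, and the groups stood far apart (-1.76, SE 0.06, adjusted p = 8.83e-21). Ebp, a sterol isomerase, averaged 102 ± 3.95 CPM in the Trim27 group and 163 ± 6.92 CPM in the GFP group (-0.68, SE 0.06). Sc5d, a sterol desaturase, averaged 44.0 ± 4.37 CPM in the Trim27 group and 57.3 ± 2.95 CPM in the GFP group (-0.38, SE 0.08), did not pass with library size alone (-0.08, adjusted p = 0.377) and was at -0.99 (adjusted p = 3.41e-13) after length correction. Tm7sf2, a sterol reductase, averaged 33.2 ± 3.95 CPM in the Trim27 group and 39.2 ± 2.64 CPM in the GFP group with overlapping values (-0.24, adjusted p = 0.0194). The Tm7sf2 call was lost without GFP replicate 4 (-0.19, adjusted p = 0.0774) and turned to 0.07 with library size alone (adjusted p = 0.498).

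Of the 5 SREBP regulators, 3 rose and 1 fell, against 4 and 0 with library size alone and 1 and 3 after length correction. Taking out the length trend of abundant genes gave 4 rises and 1 fall. Insig2, whose protein retains SREBP precursors in the endoplasmic reticulum, had the largest rise of the 31 genes. Insig2 was at 7.76, 7.53, 7.01 and 6.62 CPM in Trim27 libraries 1 to 4, against 1.14, 0.745, 0.239 and 0.206 CPM in GFP libraries 1 to 4. Every Trim27 library lay above every GFP library, and the fitted log2 fold change of 3.62 (SE 0.32, adjusted p = 1.59e-11) rests on 459 counts over the Trim27 libraries and 21 over the GFP libraries. Insig2 alone of the 31 genes was kept by the low-count filter through the Trim27 libraries only (3.2%, against 19.2% of all tested genes), and so had to be higher there to be tested. Insig1, its more abundant paralog and a known SREBP target, was at 135, 94.3, 103 and 97.4 CPM in Trim27 libraries 1 to 4 and at 86.9, 88.3, 91.0 and 77.1 CPM in GFP libraries 1 to 4. The groups did not overlap (0.32, SE 0.09, adjusted p = 0.00283), but Trim27 replicate 1 was the highest, and without it the value was 0.16 (adjusted p = 0.0112). After length correction it was -0.02 (adjusted p = 0.87), and with the length trend of abundant genes taken out it was 0.41 (adjusted p = 0.00246).

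Srebf1, which encodes the SREBP proteins linked mainly to fatty acid synthesis, was at 139, 168, 163 and 164 CPM in Trim27 libraries 1 to 4 and at 161, 139, 148 and 142 CPM in GFP libraries 1 to 4. These values overlapped, and Srebf1 did not pass (0.11, adjusted p = 0.108). It passed without Trim27 replicate 1 (0.14, adjusted p = 0.0102), its lowest library, and without GFP replicate 1 (0.15, adjusted p = 0.0342). It was a called rise with library size alone (0.41, adjusted p = 3.46e-07) and a called fall after length correction (-0.45, adjusted p = 1.91e-07). Srebf2, linked mainly to cholesterol synthesis, was at 179, 179, 195 and 196 CPM in Trim27 libraries 1 to 4 and at 242, 212, 229 and 214 CPM in GFP libraries 1 to 4. It fell by 0.26 on the log2 scale (SE 0.05, adjusted p = 6.05e-05) without overlap, but was at 0.04 (adjusted p = 0.455) with library size alone and at -0.90 (adjusted p = 8.78e-16) after length correction. Scap, the escort of SREBP, was at 148, 164, 171 and 155 CPM in Trim27 libraries 1 to 4 and at 143, 134, 138 and 131 CPM in GFP libraries 1 to 4. Its rise was small and without overlap (0.23, SE 0.06, adjusted p = 0.000528), and it turned to -0.32 (adjusted p = 1.26e-05) after length correction. Scap stayed at 0.26 (adjusted p = 8.12e-05) with the length trend of abundant genes taken out.

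**Figure D2:**
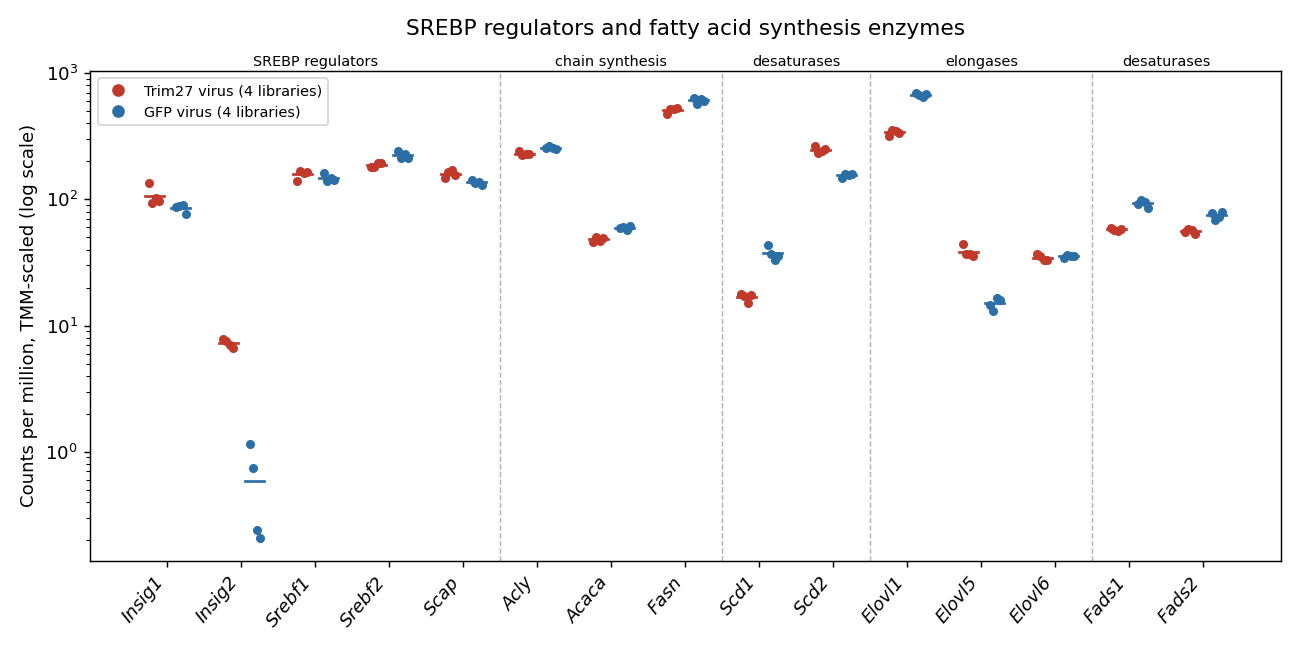
Level of each of 5 SREBP regulator genes and 10 fatty acid synthesis genes in every library, in CPM on a log axis, with Trim27 libraries in red left of GFP libraries in blue and bars at the group means. Scd1 and Elovl1 are lower in all Trim27 libraries than in all GFP libraries, while Scd2, Elovl5 and Insig2 are higher in all Trim27 libraries.

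Of the 10 fatty acid synthesis genes, 2 rose and 7 fell, against 4 and 3 with library size alone and 1 and 8 after length correction. The 3 genes that make the saturated chain fell slightly under TMM, none of them fell with library size alone, and all 3 fell by more after length correction on all genes. Fitting the length trend on abundant genes alone gave -0.13 for Acly, -0.47 for Acaca and -0.43 for Fasn. Acly, which splits citrate into cytosolic acetyl-CoA, averaged 231 ± 7.8 CPM in the Trim27 group and 257 ± 7.71 CPM in the GFP group (SD, n = 4 each, -0.15, adjusted p = 0.00486). Acaca, the acetyl-CoA carboxylase of the committing step, averaged 48.2 ± 1.8 CPM in the Trim27 group and 59.8 ± 1.88 CPM in the GFP group (-0.31, adjusted p = 0.000164). Fasn, fatty acid synthase, averaged 509.7 ± 23.5 CPM in the Trim27 group and 609.8 ± 29.1 CPM in the GFP group (-0.26, adjusted p = 1.46e-05). With library size alone, Acly turned to 0.15 (adjusted p = 0.00472), Fasn to 0.05 (adjusted p = 0.344), and Acaca was at -0.01 (adjusted p = 0.899). After length correction the log2 fold changes were -0.74 for Acly (adjusted p = 7.13e-15), -1.19 for Acaca (adjusted p = 2.07e-15) and -1.13 for Fasn (adjusted p = 3.31e-18). Acaca shares 6118 aligned bases at 99.2% identity with the annotated gene Gm5182.

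The stearoyl-CoA desaturases, which introduce the double bond of oleate, moved in opposite directions under TMM. The Scd2 rise was lost after length correction on all genes, but not with the length trend of abundant genes. Scd1 was at 17.8, 17.1, 15.1 and 17.4 CPM in Trim27 libraries 1 to 4, against 43.4, 37.1, 33.4 and 35.8 CPM in GFP libraries 1 to 4. Scd2 was at 267, 233, 244 and 250 CPM in Trim27 libraries 1 to 4, against 147, 160, 157 and 158 CPM in GFP libraries 1 to 4. Neither gene's groups overlapped, and the log2 fold changes were -1.15 (SE 0.10, adjusted p = 1.72e-11) for Scd1 and 0.68 (SE 0.05, adjusted p = 1.02e-12) for Scd2. Within each library, where scaling plays no part, there were 15.1, 13.7, 16.2 and 14.4 Scd2 counts per Scd1 count in Trim27 libraries 1 to 4, against 3.38, 4.31, 4.71 and 4.41 in GFP libraries 1 to 4. After length correction the Scd2 value was -0.01 (adjusted p = 0.827) and the Scd1 value -1.76. With the length trend of abundant genes taken out, Scd2 was at 0.67 (adjusted p = 8.06e-12) and Scd1 at -1.14. A stretch of 623 bases is shared at 95.5% identity, so some reads could be assigned to either gene.

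The elongases, which add carbon units to long chains, differed from each other too. Elovl1, which acts on saturated and monounsaturated very long chains, was at 320, 353, 348 and 339 CPM in Trim27 libraries 1 to 4, against 692, 675, 651 and 684 CPM in GFP libraries 1 to 4. Its level in the Trim27 group was 0.503 times that in the GFP group without overlap (-0.99, SE 0.05, adjusted p = 8.05e-18). Elovl5, which acts on polyunsaturated chains, was at 44.2, 37.0, 36.8 and 35.7 CPM in Trim27 libraries 1 to 4, against 14.6, 13.1, 16.6 and 16.04 CPM in GFP libraries 1 to 4. It was 2.55-fold higher in the Trim27 group without overlap (1.35, SE 0.11, adjusted p = 1.08e-12). Elovl6, which extends palmitate, did not pass (-0.04, adjusted p = 0.665), at 34.6 ± 1.98 CPM in the Trim27 group and 35.6 ± 0.733 CPM in the GFP group. Elovl6 passed upwards with library size alone (0.26, adjusted p = 0.00513) and downwards after length correction (-0.80, adjusted p = 3.93e-10).

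The desaturases of polyunsaturated fatty acids fell, Fads2 not under every scaling. Fads1, the delta-5 desaturase, was at 59.7, 57.1, 56.1 and 58.1 CPM in Trim27 libraries 1 to 4, against 92.5, 99.3, 96.1 and 86.2 CPM in GFP libraries 1 to 4 (-0.70, SE 0.06, adjusted p = 3.84e-11). Fads2, the delta-6 desaturase encoded beside it, was at 54.8, 58.5, 57.3 and 53.4 CPM in Trim27 libraries 1 to 4, against 77.7, 68.5, 72.7 and 79.8 CPM in GFP libraries 1 to 4 (-0.41, SE 0.07, adjusted p = 2.44e-06). The groups overlapped for neither gene, but Fads2 did not pass with library size alone (-0.11, adjusted p = 0.125).

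Per kilobase of exon, the levels of Fdps, Pmvk, Mvk and Mvd were among the 5 highest of the 31, while Acat2 (19 of 31 in the Trim27 group and 10 of 31 in the GFP group) and Idi1 stood lower. In both groups Fdps, Pmvk and Elovl1 led, at 407, 219 and 175 CPM per kilobase in the Trim27 group and 577, 377 and 348 CPM per kilobase in the GFP group. Mvk and Mvd followed, at 117 and 101 CPM per kilobase in the Trim27 group and 144 and 237 CPM per kilobase in the GFP group. Insig2 and Idi1 had the lowest levels in both groups, at 2.45 and 1.46 CPM per kilobase in the Trim27 group and 0.197 and 2.14 CPM per kilobase in the GFP group. Lss ranked 9 of 31 in the Trim27 group and 21 of 31 in the GFP group, and Dhcr7 24 of 31 in the Trim27 group and 13 of 31 in the GFP group. Their ratio within a library was 5.72, 6.24, 6.73 and 6.39 Lss counts per Dhcr7 count in Trim27 libraries 1 to 4, against 0.948, 0.888, 0.907 and 0.863 in GFP libraries 1 to 4. This pair was chosen after its values were seen, as the largest rise and the largest fall of the sterol enzymes.

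Changes of 2-fold or more at an adjusted p below 0.05 were few. Lss, Insig2 and Elovl5 rose by that much (3 of 31, against 31.3% of all tested genes and 5.60% of abundant ones), and Mvd, Dhcr7 and Scd1 fell by that much (3 of 31, against 16% and 11.9%). Of these, Insig2 was tested only because it was high in the Trim27 group. Changes of this size were thus less common among abundant genes, where most of the 31 lay, than over the whole table.

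**Figure D3:**
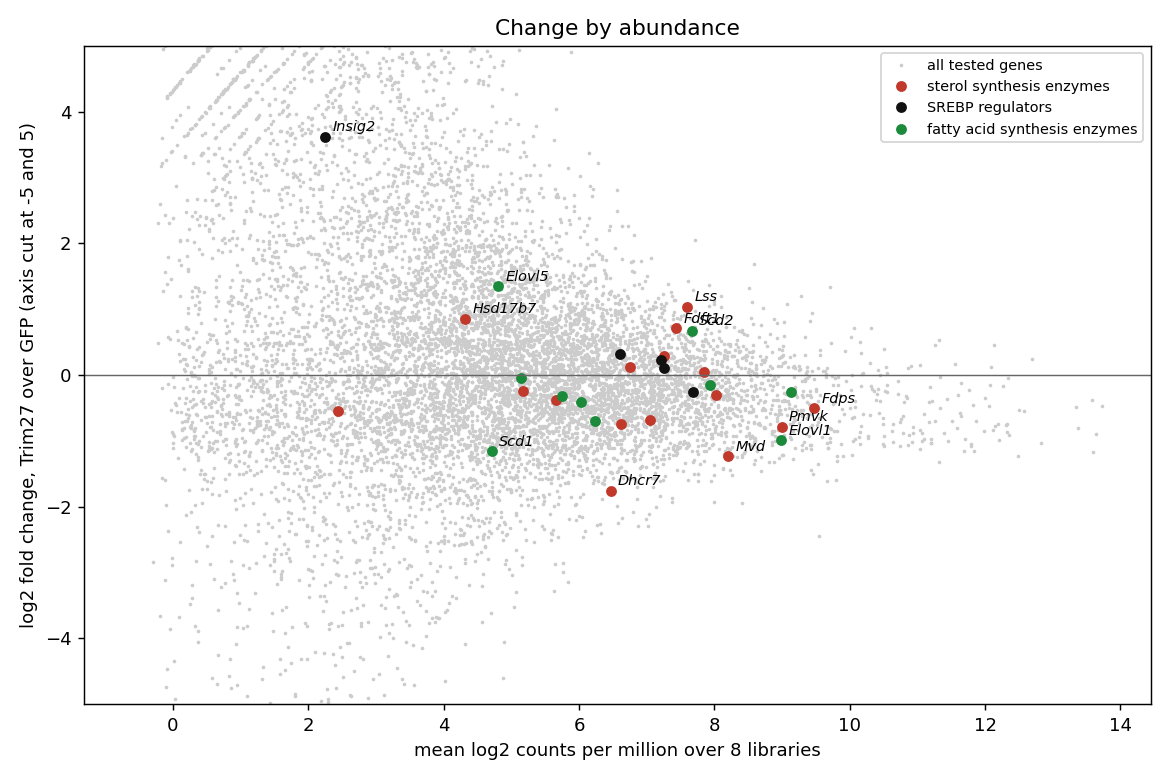
Log2 fold change, Trim27 over GFP, against mean log2 CPM over all 8 libraries, with every tested gene in grey and the 31 genes coloured by role; 1302 genes lie outside the limits of -5 and 5. Sterol and fatty acid genes sit within the spread of genes of like abundance, and Insig2 (3.62) lies among scarce genes, whose spread is wide.

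By exon length, the shortest of the 31 genes differed from the rest in direction, with no test made. All 7 of the genes with 1000 to 2000 exon bases fell (Mvk, Pmvk, Mvd, Fdps, Tm7sf2, Ebp and Elovl1), with a median log2 fold change of -0.68 against -0.09 for all tested genes and -0.31 for abundant genes of that length. Of the 12 genes from 2000 to 4000 bases, 5 rose and 5 fell (median 0.08, against 0.31 for all and -0.06 for abundant genes). Of the 10 genes from 4000 to 8000 bases, 4 rose and 4 fell (median 0.03, against 0.56 and 0.01). Acaca and Fasn, with more than 8000 bases, both fell (median -0.29), although the median of all tested genes of that length was 0.84 and that of abundant ones 0.34. After length correction, 4 of the 31 genes rose and 23 fell, while 4401 of all 11040 tested genes rose and 4884 fell. The median log2 fold change was then -0.74 over the 31 genes and -0.07 over all tested genes. With the length trend of abundant genes taken out, 12 of the 31 rose and 17 fell, and 5918 of all tested genes rose and 3285 fell.

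**Figure D4:**
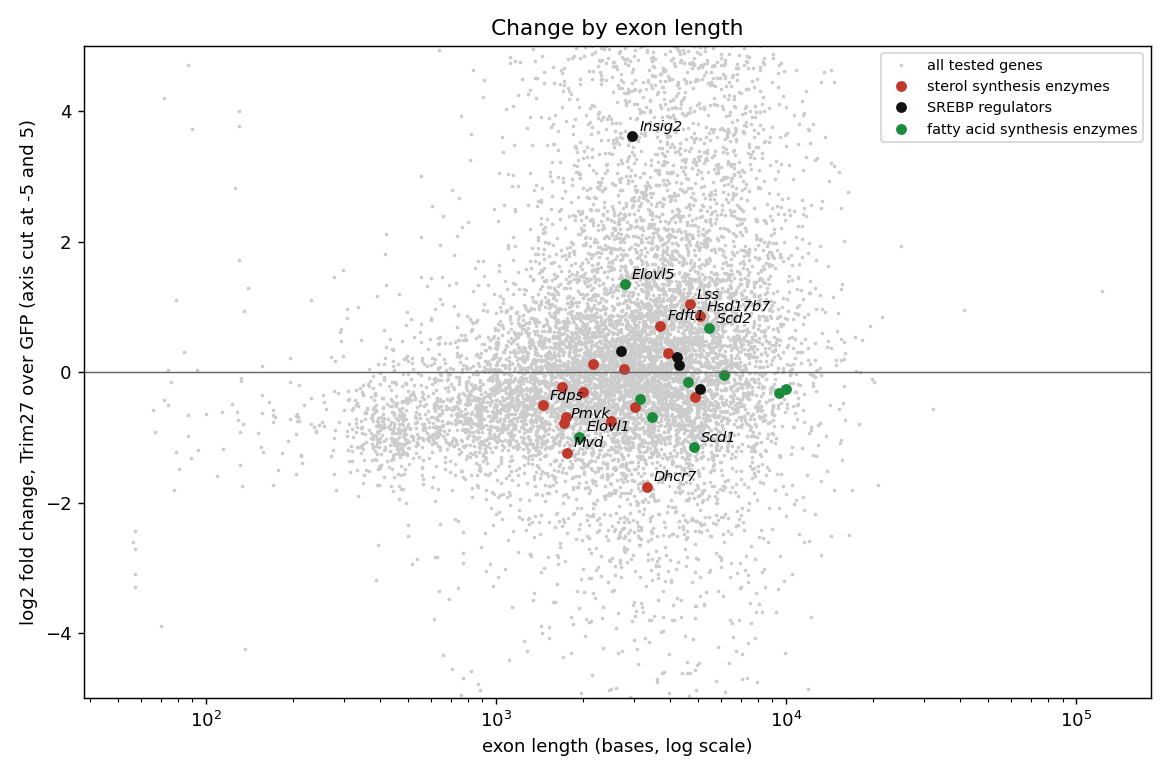
Log2 fold change, Trim27 over GFP, against exon length in bases on a log axis, with every tested gene in grey and the 31 genes coloured by role; the vertical axis is cut at -5 and 5. Those of the 31 genes with fewer than 2000 bases lie below 0, while longer ones lie on both sides, with Lss and Elovl5 above and Dhcr7 and Scd1 below.

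Genes differed in how firmly their direction held. Under TMM, DESeq2 size factors, upper-quartile factors, library size alone and both length corrections, 13 of the 31 passed the threshold in the same direction in all 6. The share of all tested genes that did so was not counted, so whether 13 is many or few cannot be told. Fdft1, Lss, Insig2 and Elovl5 rose, and Acat2, Pmvk, Mvd, Fdps, Ebp, Dhcr7, Scd1, Elovl1 and Fads1 fell. For Insig2 the direction was set in advance, since it was kept by the low-count filter through the Trim27 libraries only. The other 18 changed direction or missed the threshold in at least 1 of the 6. With library size alone the median over all tested genes was 0.44, a shift of 0.30, and there were 14 rises and 9 falls among the 31 genes, whose median was 0.05. Of all 11040 tested genes, 6277 rose and 3106 fell under that scaling.

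**Figure D5:**
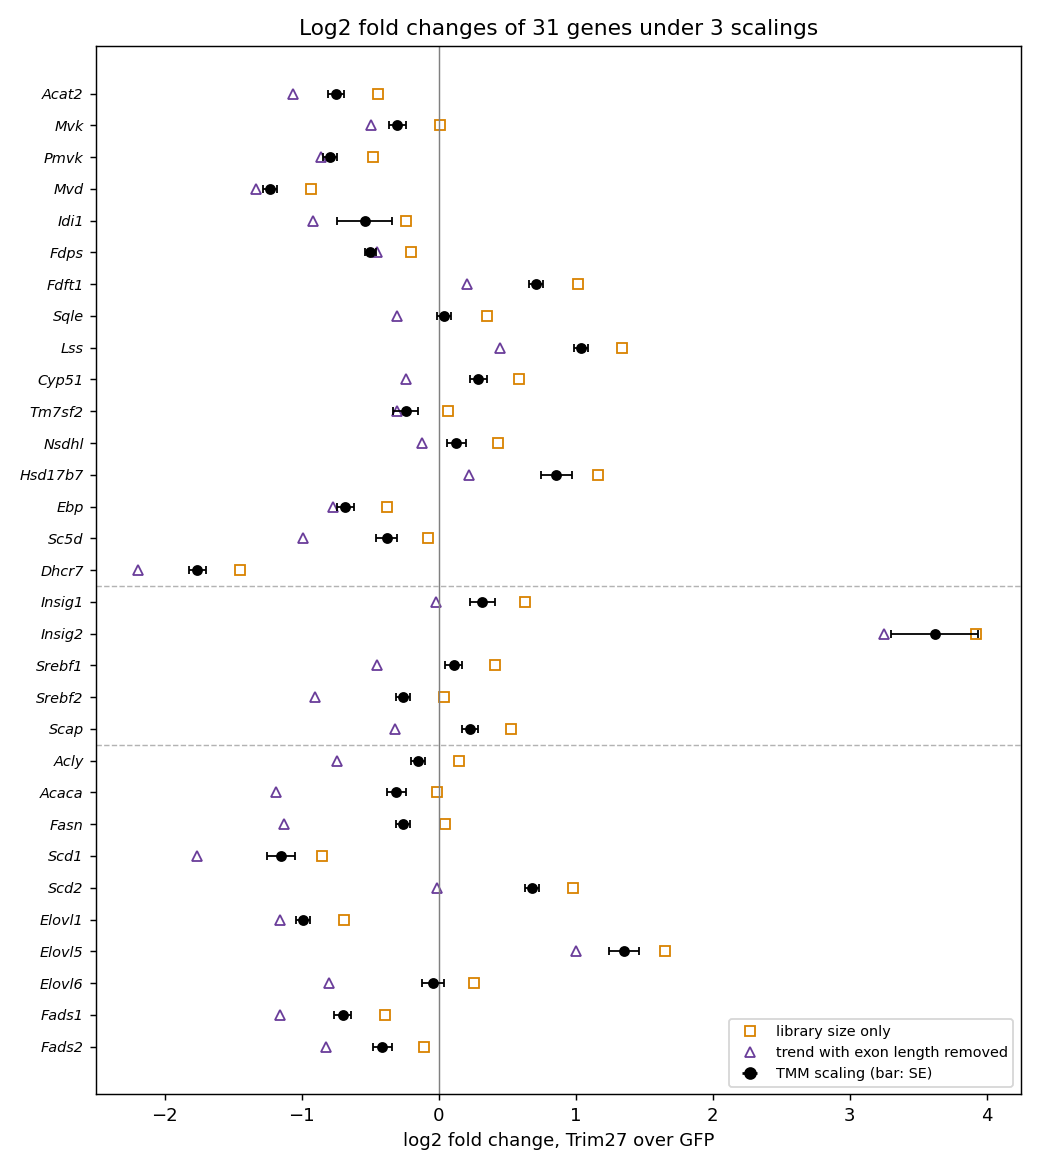
Log2 fold change, Trim27 over GFP, of the 31 genes in 3 scalings, with TMM as black points and bars of 1 SE, library size alone as squares, and the trend with exon length removed as triangles. Dhcr7, Mvd and Scd1 stay left of 0 and Lss, Fdft1, Insig2 and Elovl5 right of 0 in all 3, while Mvk, Srebf2, Fasn and Acly cross 0.

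Neighbouring pathways were read from lists of other genes. Of all 57 such genes tested, 29 rose (50.9%) and 21 fell (36.8%), close to the 47.5% and 38.0% of all tested genes, and 29.8% rose by 2-fold or more, against 31.3%. Of the 57, 7 reached the minimum of the low-count filter in all 4 Trim27 libraries but not in all 4 GFP libraries (Ggps1, Pdss2, Rnf139, Erlin1, Erlin2, Lipa and Npc1). This was 12.3% of the 57, against 19.2% of all tested genes (2123 of 11040), so such genes were not particular to these lists. The 7 were tested only because they were high in the Trim27 group, so their rises follow in part from the filter. Of 11 tested enzymes of further sterol and isoprenoid steps, 7 rose and 2 fell (10 and 0 with library size alone, 6 and 3 after length correction). Dhdds, a subunit of the enzyme that makes dolichol chains, averaged 40.4 ± 2.43 CPM in the Trim27 group and 6.34 ± 1.08 CPM in the GFP group (2.68, SE 0.12). Icmt, which methylates prenylated proteins, averaged 22.9 ± 1.26 CPM in the Trim27 group and 2.46 ± 0.674 CPM in the GFP group (3.23, SE 0.17). Pdss2, a subunit of the synthase of the ubiquinone side chain, averaged 15.4 ± 0.972 CPM in the Trim27 group, with 10 counts over the GFP libraries (5.76).

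Of 7 tested genes of SREBP processing and turnover, 5 rose and 1 fell (4 and 3 after length correction), and 3 of the 5 rises were among the genes kept by the filter through the Trim27 group alone. The ubiquitin ligase Rnf139 averaged 37.5 ± 3.85 CPM in the Trim27 group and 0.525 ± 0.602 CPM in the GFP group (6.13). The membrane proteins Erlin1, at 20.6 ± 2.35 CPM in the Trim27 group and 0.456 ± 0.62 CPM in the GFP group (5.51), and Erlin2, at 10.4 ± 1.32 CPM in the Trim27 group and 0.639 ± 0.276 CPM in the GFP group (4.0), rose too. These GFP levels rest on 19, 16 and 23 counts over the GFP libraries for Rnf139, Erlin1 and Erlin2.

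Of 10 tested genes of sterol uptake, transport, export and ester formation, 3 rose and 6 fell (4 and 4 with library size alone). Of the 3 rises, 2 (Lipa and Npc1) were among the genes kept by the filter through the Trim27 group alone. Soat2, which esterifies cholesterol, fell to 14.5 ± 1.37 CPM in the Trim27 group, against 37.3 ± 3.14 CPM in the GFP group (-1.37, SE 0.10). Lipa, the lysosomal lipase that frees cholesterol from its esters, rose to 10.6 ± 1.93 CPM in the Trim27 group, against 0.405 ± 0.394 CPM in the GFP group (4.65). Npc1, the lysosomal cholesterol exporter, had 282 counts over the Trim27 libraries and 2 over the GFP libraries, a ratio of 80.95 after scaling (95% counting interval 22.2 to 671.7, for counting error only).

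Of 9 tested genes of acetyl-CoA and NADPH supply, 4 rose and 5 fell (3 and 6 after length correction). Acss2, which makes acetyl-CoA from acetate, averaged 33.1 ± 2.04 CPM in the Trim27 group and 90.6 ± 5.23 CPM in the GFP group (-1.46, SE 0.07). Mlycd, which breaks down malonyl-CoA, averaged 27.9 ± 1.81 CPM in the Trim27 group and 71.99 ± 4.64 CPM in the GFP group (-1.37, SE 0.08). G6pdx, the NADPH-producing dehydrogenase that opens the pentose phosphate pathway, averaged 151 ± 8.01 CPM in the Trim27 group and 97.6 ± 3.19 CPM in the GFP group (0.63, SE 0.06). All 3 kept their direction over the 6 scalings.

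Of 7 tested genes of other elongation, desaturation and activation steps, 4 rose and 2 fell (3 and 4 after length correction). Degs1, a desaturase of sphingolipids, averaged 168 ± 7.93 CPM in the Trim27 group and 50.5 ± 0.896 CPM in the GFP group (1.73, SE 0.06), Acsl4, which activates polyunsaturated fatty acids, 35.7 ± 5.69 CPM in the Trim27 group and 8.9 ± 2.22 CPM in the GFP group (2.0, SE 0.14), and Hsd17b12, a reductase of the elongation cycle, 187 ± 17.6 CPM in the Trim27 group and 116 ± 7.17 CPM in the GFP group (0.68, SE 0.06). Of 13 tested genes of fatty acid oxidation, 6 rose and 5 fell (5 and 7 after length correction). Slc25a20, the mitochondrial carnitine carrier, averaged 45.4 ± 2.57 CPM in the Trim27 group and 8.61 ± 1.1 CPM in the GFP group (2.40, SE 0.11). Decr1, a reductase for unsaturated chains, averaged 14.5 ± 0.771 CPM in the Trim27 group and 45.7 ± 1.15 CPM in the GFP group (-1.66, SE 0.09), and Acads, the short-chain dehydrogenase, 49.1 ± 5.5 CPM in the Trim27 group and 118 ± 5.45 CPM in the GFP group (-1.26, SE 0.07).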

How the data were processed

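The values deposited by the authors are raw counts of reads, 1 row a gene symbol, for all 8 libraries. The submitters' processing notes name HISAT2, featureCounts, bcl2fastq and the build NCBIM37. Tool versions, annotation, strandedness and the handling of multi-mapped reads: not given in the sources used here. This table held 1 row with no gene name, with 0 counts, which was left out. Counts from 1 to 10 were even in 64.7% to 67.0% of cases in Trim27 and 68.4% to 72.0% in GFP libraries, so both reads of a pair may have been counted, and counts halved and rounded up were tried as an alternative.

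The fit used edgeR 4.0.16 under R 4.3.3, with filterByExpr (minimum count 10, minimum total 15), TMM, and the quasi-likelihood test with robust estimation, fitted on all 11040 genes with no covariate, 2-sided, with Benjamini-Hochberg adjustment over all genes and a threshold of 0.05. Standard errors come from the log2 fold change and its F statistic. Exon lengths (GENCODE M21 basic, exons merged per gene, 99.6% of tested genes matched) are of GRCm38, another build than the counts, and serve as lengths only. Length trends were removed as offsets from a lowess fit (span 0.3) of each library's log2 CPM (prior count 2), on all genes or on those of at least 6 log2 CPM. Near-identical stretches are blastn alignments of at least 100 bases and 95% identity between GENCODE M21 transcripts. Other alternatives used DESeq2 1.42.0 and limma 3.58.1 (voom), other scalings and filters, glmTreat, a replicate block and leaving out each library. The scripts were tested on simulated data.

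All members are named. Values in every library are given for the 6 sterol and 6 fatty acid enzymes with the largest absolute changes, the 5 SREBP regulators and the Scd pair. Of each neighbouring list, up to 3 genes by smallest p are named with group means or summed counts. The members and lists were chosen with earlier results of these data known. Replicate numbers do not pair libraries across groups.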

Additional observations from a re-analysis of the deposited data

Results flagged for a closer look

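In 62 groups of 4 libraries, 1 for each of the 31 genes in each condition, 3 held a library far from the other 3 (gap over range above 0.829). The limit is set to flag 1 in 20 independent groups. These groups share libraries, so the number flagged cannot be set against that rate. Fdps was at 623 CPM in Trim27 replicate 2, against 579 to 581 CPM in the other Trim27 libraries. Lss was at 241 CPM in Trim27 replicate 1, against 263 to 265 CPM in the others. Elovl5 was at 44.2 CPM in Trim27 replicate 1, against 35.7 to 37.0 CPM in the others. In each case every Trim27 library stayed on the same side of every GFP library. Trim27 replicate 1, flagged for both Lss and Elovl5, also stood apart from the other Trim27 libraries over all genes. Chi-square of the counts per degree of freedom was 6.38 to 10.5 in pairs with it. In pairs of the other Trim27 libraries it was 2.60 to 3.49. The reason was not tested.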

How the results depend on the processing

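Of the 31 genes, 13 kept their called direction under all 6 scalings; limma-voom, the DESeq2 Wald test and halved counts changed no gene's call. With library size alone 14 genes rose and 9 fell, and Mvk (0.01), Tm7sf2 (0.07), Srebf2 (0.04), Acly (0.15), Fasn (0.05) and Elovl6 (0.26) turned to a positive log2 fold change, as Elovl6 did with upper-quartile factors (0.01). After length correction on all genes 4 rose, and Sqle (-0.30), Cyp51 (-0.24), Nsdhl (-0.12), Insig1 (-0.02), Srebf1 (-0.45), Scap (-0.32) and Scd2 (-0.01) turned negative. The length correction on abundant genes gave 12 rises and 17 falls. Counts over all tested genes under these scalings are given above. Against a fold change of 1.5 (glmTreat), 8 of the 31 fell, as did 2452 of all genes and 10 neighbouring genes. With a filter of 10 CPM in 4 libraries, 3453 of all genes rose. Among the 2645 genes averaging 6 log2 CPM or more when fitted alone, 802 rose and 1499 fell, and of the neighbouring genes 9 rose and 11 fell, since fewer genes were tested. For the other changes the cause was not tested.

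Leaving out each library in turn gave 9 to 10 rises and 17 to 18 falls among the 31 genes, 5100 to 5351 and 4118 to 4334 among all genes, and 26 to 29 and 20 to 23 among the neighbouring genes. Sqle ranged from -0.01 without Trim27 replicate 1 to 0.05 without GFP replicate 4. Same-numbered libraries shared no deviations (correlations -0.03 to 0.02), and with the replicate number as a block 9 rose and 18 fell, as without it. Depth limits mainly Insig2 and Idi1, which have the fewest counts of the 31 genes.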
